A study of Homo sapiens with 36 samples.

Results

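The dexamethasone response of U2OS-GRα cells depleted of Hic-5 was measured as the difference between 3 dexamethasone libraries and 3 ethanol libraries. These 6 libraries, of 36 in the series, were joined into 3 pairs by replicate number, and the response was read across 15179 tested genes. U2OS is a human osteosarcoma line, and in all 6 libraries it carried a stably transfected glucocorticoid receptor alpha (GRα). The dex group was labelled siHic5siNS, which is an siRNA against Hic-5 given with a non-silencing siRNA, followed 48 h after transfection by 100 nM dexamethasone (dex) for 8 h. Its vehicle group, also siHic5siNS, had the same transfection and then ethanol for 8 h. Where the response was set beside that of cells with Hic-5 intact, the comparison used 3 dex and 3 ethanol libraries labelled siNSsiNS, which had only non-silencing siRNA. All groups shared the transgenic receptor and the lipid transfection, the growth medium held serum, and the siRNA sequences are not described. The labels describe biological replicates made on different days.

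Glucocorticoids enter the cell and bind the glucocorticoid receptor, which leaves its chaperone complex, moves to the nucleus, binds palindromic response elements in DNA and recruits coregulators. Genes of feedback, metabolism and stress protection are known to be induced, and many cytokine genes driven by AP-1 and NF-kB are known to be repressed. Hic-5, encoded by TGFB1I1, is a LIM-domain relative of paxillin found at focal adhesions and in the nucleus, where it is known as a coregulator of steroid receptors.

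The promoters of 5 genes whose values are described further on show 3 kinds of motif and are printed here so that the letters can be read beside the changes. SPINK13 and TRIM63 rose and ITGA6 fell, and each holds a match to the palindromic glucocorticoid response element. MT2A, a metallothionein gene that rose, carries repeats of the metal response element. GPR137B, which fell, carries a match to the searched AP-1 pattern, with A at its open letter. Other motif matches of the same windows are left in lower case: 1 AP-1 match each in SPINK13 and MT2A, which rose, and 1 metal element in GPR137B. The open letter of the AP-1 match is G in SPINK13 and C in MT2A. Each line is a RefSeq promoter of the GRCh38.p14 assembly, 250 bases before to 50 bases after the annotated start, written 5′ to 3′ on the gene's own strand. Capitals mark the matches to the motif named for that gene.
SPINK13, chr5:148268544-148268843, plus strand: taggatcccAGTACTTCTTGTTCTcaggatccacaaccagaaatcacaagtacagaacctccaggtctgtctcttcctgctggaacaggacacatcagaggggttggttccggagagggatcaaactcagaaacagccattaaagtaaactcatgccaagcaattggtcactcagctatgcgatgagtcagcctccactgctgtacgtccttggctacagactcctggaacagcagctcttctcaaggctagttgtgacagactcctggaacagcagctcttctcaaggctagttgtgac
TRIM63, chr1:26067581-26067880, minus strand: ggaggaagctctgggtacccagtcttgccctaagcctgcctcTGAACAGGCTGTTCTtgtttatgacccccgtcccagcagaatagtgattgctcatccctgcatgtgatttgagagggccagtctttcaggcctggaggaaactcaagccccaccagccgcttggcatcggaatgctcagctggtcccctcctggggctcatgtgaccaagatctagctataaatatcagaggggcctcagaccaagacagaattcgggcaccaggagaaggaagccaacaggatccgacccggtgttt
ITGA6, chr2:172427086-172427385, plus strand: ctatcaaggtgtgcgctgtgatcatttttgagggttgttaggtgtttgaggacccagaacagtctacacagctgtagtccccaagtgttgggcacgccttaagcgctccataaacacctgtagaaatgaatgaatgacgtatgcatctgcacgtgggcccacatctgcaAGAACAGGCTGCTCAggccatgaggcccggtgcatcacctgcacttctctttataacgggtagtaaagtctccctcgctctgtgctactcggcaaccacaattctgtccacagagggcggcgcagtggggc
MT2A, chr16:56608334-56608633, plus strand: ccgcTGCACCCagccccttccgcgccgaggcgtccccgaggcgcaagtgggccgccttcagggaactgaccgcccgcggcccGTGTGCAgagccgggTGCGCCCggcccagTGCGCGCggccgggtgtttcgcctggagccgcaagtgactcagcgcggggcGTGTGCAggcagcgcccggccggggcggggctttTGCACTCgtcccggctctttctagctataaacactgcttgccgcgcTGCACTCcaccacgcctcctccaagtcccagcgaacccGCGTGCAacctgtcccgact
GPR137B, chr1:236142289-236142588, plus strand: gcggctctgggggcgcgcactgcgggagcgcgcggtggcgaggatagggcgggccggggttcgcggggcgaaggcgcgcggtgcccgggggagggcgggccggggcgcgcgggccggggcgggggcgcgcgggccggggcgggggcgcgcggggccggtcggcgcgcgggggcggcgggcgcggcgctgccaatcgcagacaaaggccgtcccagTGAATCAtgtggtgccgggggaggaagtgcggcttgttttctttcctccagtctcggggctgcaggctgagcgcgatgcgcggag

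The glucocorticoid element was searched as the half-sites AGAACA and TGTTCT with NNN between them, with up to 2 mismatches in its 12 fixed letters, the metal element as TGCACNC or TGCGCNC, and the AP-1 element as TGANTCA, each on both strands. The glucocorticoid match begins 241 bases before the start of SPINK13, 208 before that of TRIM63 and 81 before that of ITGA6. The MT2A window holds 8 metal elements, and the AP-1 match of GPR137B begins 35 bases before its start. Of all 35116 promoters in the table, 1.41% held a glucocorticoid match, 29.6% a metal element and 7.71% an AP-1 element. Promoters matched 11787 of the tested genes, of which 0.585% held the glucocorticoid match, against 8 of 511 (1.57%) for genes that rose and 4 of 513 (0.78%) for genes that fell. The metal element was in 38.1% of the promoters of tested genes, in 183 of 511 (35.8%) of genes that rose and in 183 of 513 (35.7%) of genes that fell. The AP-1 element was in 31 of 511 promoters (6.07%) of genes that rose, in 50 of 513 (9.75%) of genes that fell and in 5.08% of those tested. These matches describe the letters of a short window and say nothing of whether the receptor or AP-1 was bound there.

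The depth and the labels were checked next. The 6 libraries held 30.03 to 36.8 M counts, within the 27.4 to 47.1 M of the series. Levels are given as CPM, the counts of a gene relative to the library total, scaled by upper-quartile factors. TGFB1I1 (chr16:31472152-31477960) had 5.46, 7.63 and 4.23 CPM in siHic5siNS cells with dex, against 28.2, 30.4 and 28.3 CPM in siNSsiNS cells with dex. With vehicle it had 5.27, 11.2 and 4.74 CPM in siHic5siNS cells, against 27.9, 29.3 and 28.1 CPM in siNSsiNS cells. The transcript was thus at 19.9% of the siNSsiNS mean with dex (edgeR adjusted p = 1.64e-08) and at 24.8% with vehicle (adjusted p = 1.47e-07), with no overlap between siRNA conditions. Between these conditions 53.6% of tested genes were called with dex and 53.1% with vehicle. The receptor transcript NR3C1 averaged 122 ± 19.8 CPM in siHic5siNS vehicle cells and 82.7 ± 11.4 CPM in siNSsiNS vehicle cells (SD, n = 3 each; adjusted p = 0.00261). With dex it averaged 90.9 ± 5.84 CPM in siHic5siNS cells and 76.0 ± 9.18 CPM in siNSsiNS cells, which was not called (SD, n = 3 each; adjusted p = 0.151). Counts per gene cannot tell transcripts of the transfected GRα from those of the cells' own NR3C1 gene.

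Vehicle replicate 2 of the siHic5siNS cells stood apart in several gene groups. It had the highest of the 3 vehicle values in 19 of 20 immediate early genes, 22 of 22 p53 target genes and 13 of 17 inflammatory genes. For scale, it was highest in 336 of the 693 genes called lower with dex and in 238 of the 662 called higher. The share over all tested genes was not computed. In other groups another library led: vehicle replicate 3 was highest in 32 of 34 DNA replication genes and vehicle replicate 1 in 18 of 30 mitosis genes. The immediate early factor FOSB had 2.79, 8.45 and 2.84 CPM with dex, against 2.85, 85 and 3.09 CPM with vehicle, so that its groups overlapped and replicate 2 was high under both treatments. Vehicle replicate 2 was also the siHic5siNS vehicle library with the most TGFB1I1. Ribosomal RNA genes took 3.44% of counts in vehicle replicate 3 and 6.04% in dex replicate 3, and less in the other 4. The part of these features in the results was not tested, but values without each pair are given where they change a call. Osteosarcoma and mesenchymal markers were present (5 of 9 tested), with sums of 5743 to 6705 CPM with dex and 6384 to 7130 CPM with vehicle, and COL1A2, SP7, BGLAP and IBSP were not in the table. Epithelial markers (4 of 5 tested, KRT19 not in the table) summed to 254 to 288 CPM with dex and 215 to 270 CPM with vehicle, where KRT8 rose (0.49 ± 0.05) and CDH1 fell. Haematopoietic markers (2 of 5 tested, with PTPRC, CD14 and SPI1 not in the table) summed to 7.01 to 7.85 CPM with dex and 6.96 to 9.03 CPM with vehicle. Endothelial markers (4 of 4) summed to 5.03 to 8.85 CPM with dex and 5.43 to 8.76 CPM with vehicle.

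With dex, the genes that rose included 19 of 35 classic glucocorticoid-induced genes, 4 metallothionein genes and a set of genes that were almost silent under vehicle. Those that fell included the cytokine genes LIF and CSF2, the growth factor gene HBEGF and TNFRSF11B, which encodes osteoprotegerin. The gene lists, the classic one included, were written with earlier results of these data known. In all, 662 genes rose (4.36% of those tested) and 693 fell (4.57%), together 8.93%, at an adjusted p under 0.05 by edgeR's quasi-likelihood test with pairs as blocks and Benjamini-Hochberg adjustment. Most of the large changes were rises. Of the genes that rose, 167 changed more than 2-fold and 65 more than 4-fold, and the median log2 change was 0.50. Of those that fell, 56 changed more than 2-fold and 3 more than 4-fold, with a median of -0.44, while the median of all tested genes was -0.01. All 3 pairs moved the called way for 658 of the genes that rose and 686 of those that fell. Over all tested genes, all 3 pairs moved up for 19.1% and down for 21.9%. The calls come from a paired test on these same pairs, so their agreement is no separate evidence. The dex and vehicle values did not overlap for 412 of the genes that rose (62.2%) and 341 of those that fell (49.2%), where 10.9% of all tested genes showed no overlap, 5.42% upward and 5.44% downward. Without the pairing 110 genes rose (0.725%) and 23 fell (0.152%), all of them also called with it. Leaving out 1 pair left 393 to 440 genes that rose and 277 to 442 that fell. In bulk RNA, fewer cells expressing a gene and less RNA per cell cannot be told apart.

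**Figure D1:**
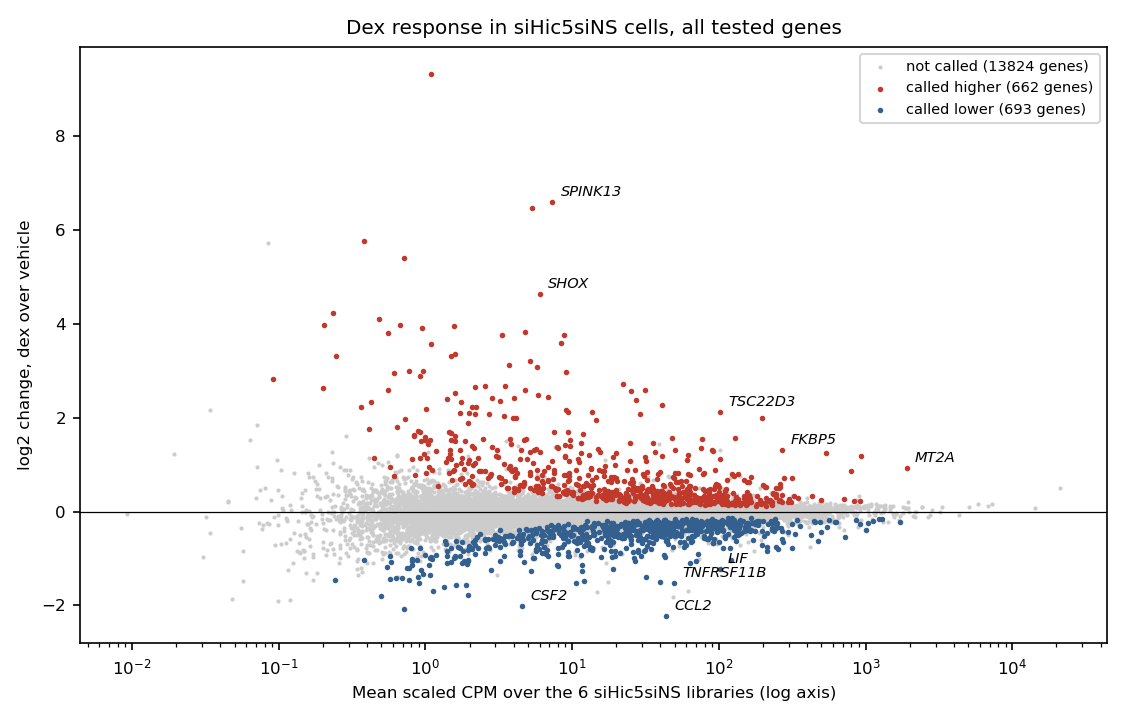
Each point is 1 of 15179 tested genes in siHic5siNS cells, with the mean scaled CPM of the 6 libraries on a log axis and the log2 change, dex over vehicle, on the other. The 662 called rises reach the largest sizes among genes of low level, while the 693 called falls stay small; the topmost point is MORC1, whose size is not bounded because no vehicle read was counted.

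Genes with little or no signal under vehicle gave the largest rises. Of the genes that rose, 81 averaged less than 1 CPM with vehicle, and their median log2 change was 2.11. The vehicle level is also the denominator of the change, so this pattern follows in part from the grouping. A gene under 1 CPM with vehicle also met the rule for naming, a mean of at least 1 CPM, only through its dex libraries. MORC1, a germ-line chromatin factor, had 2.42, 1.13 and 3.00 CPM with dex and no read in any vehicle library. Against a floor of 3 counts over the vehicle group, it was at least 71.0-fold higher with dex. SPINK13, a Kazal-type protease inhibitor, had 20.2, 9.92 and 13.2 CPM with dex, against 0.0970, 0.269 and 0.0813 CPM with vehicle, a log2 change of 6.59 ± 0.50 (SE; adjusted p = 1.66e-07). Every dex library of SPINK13 was far above every vehicle library. ACTL8, an actin-like gene known from testis, had 10.3, 12.2 and 8.95 CPM with dex, against 0.0647, 0.101 and 0.163 CPM with vehicle (6.48 ± 0.56, adjusted p = 8.65e-07). SHOX, a homeobox gene of skeletal growth, had 10.8, 16.8 and 7.17 CPM with dex, against 0.0647, 0.739 and 0.542 CPM with vehicle (4.64 ± 0.59, adjusted p = 4.91e-05). Replicate 2 was highest for SHOX under both treatments, and the groups did not overlap.

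Several of the other large rises encode membrane, transport or muscle proteins. RASGRP2, a calcium-regulated exchange factor for Rap GTPases, had 9.78, 7.90 and 9.23 CPM with dex, against 0.647, 0.302 and 0.922 CPM with vehicle (3.83 ± 0.29, adjusted p = 2.12e-07). CDH15, the muscle cadherin, had 19.6, 14.8 and 14.8 CPM with dex, against 2.1, 0.302 and 1.33 CPM with vehicle (3.77 ± 0.30, adjusted p = 3.11e-07). CACNA1I encodes a calcium channel of the T type and had 16.4, 11.4 and 18.4 CPM with dex, against 1.36, 1.55 and 0.949 CPM with vehicle (3.58 ± 0.32, adjusted p = 1.45e-06). For these 3 the lowest dex library lay several-fold above the highest vehicle library. CACNA1I was the only call among 14 calcium channel genes tested, which is 7.14%, next to 8.93% over all tested genes. SLC38A4, a system A amino acid transporter, had 5.83, 1.81 and 11.1 CPM with dex, against 0.647, 0.302 and 0.380 CPM with vehicle (3.77 ± 0.39, adjusted p = 5.06e-06). TF, which encodes the iron carrier transferrin, rose with a log2 change of 3.96 ± 0.53, MYH6, a cardiac myosin heavy chain, with 3.57 ± 0.54, and PCBP3, an RNA-binding protein gene, with 3.31 ± 0.39. TRIM63, the muscle ubiquitin ligase also called MuRF1, had 1.02, 3.34 and 4.31 CPM with dex, against 0.194, 0.437 and 0.217 CPM with vehicle (3.35 ± 0.38, adjusted p = 3.01e-05). Replicate 1 was the lowest for TRIM63 with dex, yet still above all vehicle values. The 12 genes named for the largest rises remained called without any 1 pair and also without the pairing.

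**Figure D2:**
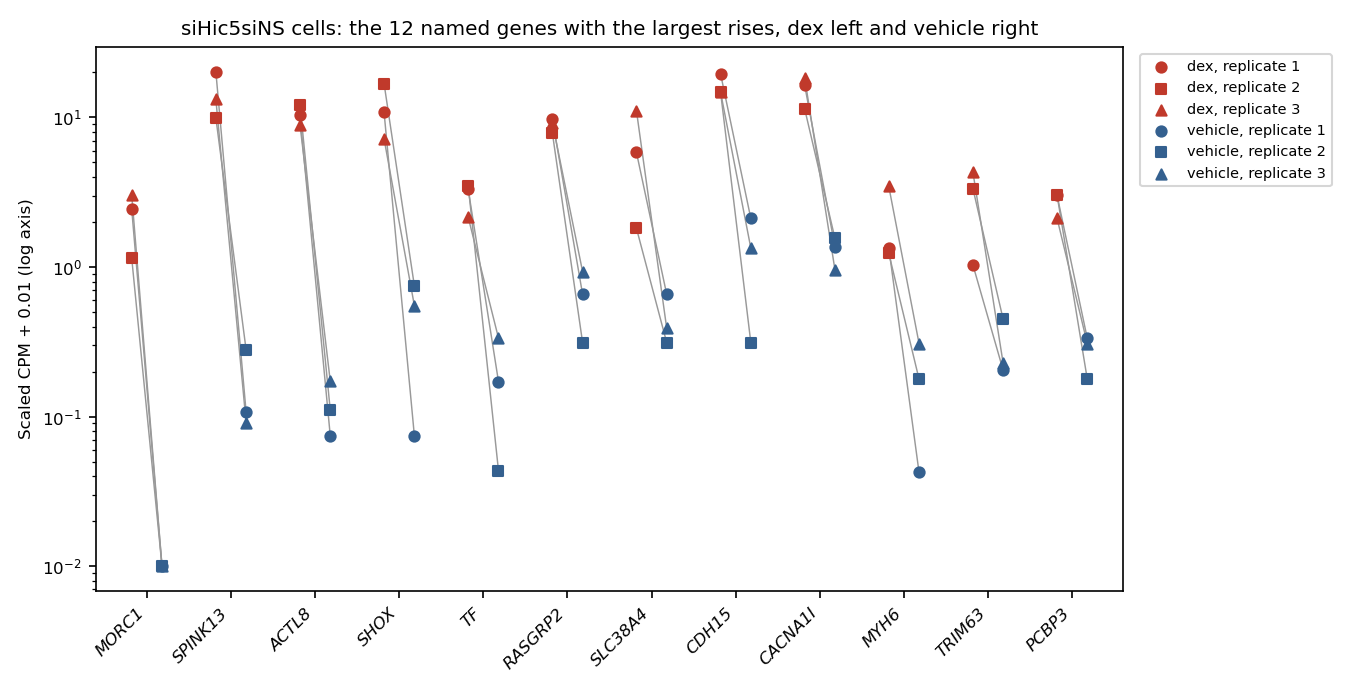
Scaled CPM plus 0.01 on a log axis for the 12 genes named for the largest rises in siHic5siNS cells, with dex at the left and vehicle at the right of each gene and lines joining the 3 pairs. No dex point lies below a vehicle point of the same gene, and MORC1 sits at the axis offset in all 3 vehicle libraries.

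The receptor pathway itself changed at its feedback gene and in the receptor transcripts, where NR3C1 counts may include those of the transfected receptor. FKBP5, an immunophilin that lowers the receptor's hormone affinity, had 402, 329 and 420 CPM with dex, against 168, 130 and 166 CPM with vehicle (1.31 ± 0.08, adjusted p = 7.65e-09). Its groups were far apart, and replicate 2 was the lowest under both treatments. NR3C1, the receptor, had 91.2, 96.5 and 84.8 CPM with dex, against 128, 100 and 138 CPM with vehicle (-0.42 ± 0.11, adjusted p = 0.0274). The groups for NR3C1 were separated by a few CPM at replicate 2, and the call was lost without pair 1 or pair 3 (adjusted p up to 0.245). The mineralocorticoid receptor NR3C2 fell by 0.77 on the log2 scale, and the chaperone HSP90AA1 fell by 0.18. The call for NR3C2 was lost without pair 1 (adjusted p = 0.0520), and that for HSP90AA1 without pair 2 or 3 (up to 0.108). Of 13 tested receptor and chaperone genes, 1 rose (7.69%), 3 fell (23.1%) and the other 9 were not called. Over all tested genes 4.36% rose and 4.57% fell. None of the 20 coregulator genes tested passed the test in either direction, with a median log2 change of -0.01.

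Of 39 classic glucocorticoid-induced genes 35 were tested, and 19 rose (54.3%), 2 fell (5.71%) and 14 were not called. Their median log2 change was 0.75. Over all tested genes 4.36% rose and 4.57% fell. TSC22D3, which encodes the anti-inflammatory leucine zipper protein GILZ, had 158, 168 and 171 CPM with dex, against 35.2, 40.3 and 38.9 CPM with vehicle (2.12 ± 0.09, adjusted p = 2.57e-10). The 3 dex values and the 3 vehicle values were each close together. IP6K3, an inositol hexakisphosphate kinase, had 17.3, 15 and 21.9 CPM with dex, against 6.37, 4.07 and 6.78 CPM with vehicle (1.66 ± 0.12, adjusted p = 1.28e-07). ZBTB16, a zinc finger repressor also known as PLZF, had 19.7, 23.4 and 23.6 CPM with dex, against 6.11, 4.67 and 4.61 CPM with vehicle (2.12 ± 0.19, adjusted p = 1.47e-06). For both of these genes the groups were well separated. RHOB, a small GTPase of endosomes and the cytoskeleton, had 697, 1036 and 513 CPM with dex, against 253, 491 and 226 CPM with vehicle (1.24 ± 0.11, adjusted p = 1.35e-06). Replicate 2 was the highest for RHOB under both treatments, and the dex and vehicle values did not overlap. FAM107A (3.07 ± 0.32), TIPARP (1.57 ± 0.18), SLC19A2 (1.12 ± 0.15), CRISPLD2 (2.16 ± 0.36) and KLF9 (0.73 ± 0.12) rose as well, with dex above vehicle in all pairs.

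Some well-known members were not called or fell. ANXA1, which encodes annexin A1, fell by 0.34 on the log2 scale (adjusted p = 2.95e-05), with 201, 228 and 234 CPM with dex against 251, 298 and 290 CPM with vehicle. The growth arrest gene GADD45A fell by 0.38 (adjusted p = 0.0292), a call lost without pair 2 or 3 (up to 0.250). PER1, a clock repressor, had 109, 187 and 118 CPM with dex, against 48.5, 192 and 56.2 CPM with vehicle (0.72 ± 0.25, adjusted p = 0.0805). Replicates 1 and 3 of PER1 were higher with dex, and vehicle replicate 2 was as high as its dex partner. Without pair 2 PER1 was called, with a log2 change of 1.11. DUSP1, a phosphatase that inactivates MAP kinases, gave 0.75 ± 0.35 (adjusted p = 0.199), and the kinase gene SGK1 gave 0.54 ± 0.27 (adjusted p = 0.253). The number of members that rose was 12, 17 and 14 without pair 1, 2 or 3, and 9 without the pairing.

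Metallothioneins are small proteins that bind zinc and copper, and 4 of their genes rose. Of 6 members tested in the metallothionein and zinc list, 4 rose (66.7%), 1 fell (16.7%) and MTF1 was not called, with a median log2 change of 0.76. Over all tested genes 4.36% rose and 4.57% fell. MT2A had 2415, 2723 and 2351 CPM with dex, against 1331, 1298 and 1287 CPM with vehicle (0.93 ± 0.13, adjusted p = 1.02e-04), and the 8 metal elements printed above lie in its promoter window. MT1E had 1380.4, 1513 and 961 CPM with dex, against 541, 670 and 478 CPM with vehicle (1.18 ± 0.11, adjusted p = 1.47e-06). Every dex library exceeded every vehicle library in both genes. At lower levels, MT1X averaged 99.5 ± 31.4 CPM with dex and 56.2 ± 14.9 CPM with vehicle (0.80 ± 0.11), and MT1G averaged 13.8 ± 4.37 CPM with dex and 8.33 ± 2.59 CPM with vehicle (0.72 ± 0.13; SD of levels, n = 3 each). The groups of MT1X and MT1G overlapped. These genes are near-identical copies, so that how reads were split among them is uncertain. The zinc exporter SLC30A1 fell by 0.40. The 4 rises remained without any 1 pair, and without the pairing 2 of them were called, MT2A and MT1E.

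Regulators of glucose, fat and muscle protein also rose. Of 18 metabolism and atrophy genes tested, 7 rose (38.9%) and none fell, with a median log2 change of 0.40. Over all tested genes 4.36% rose and 4.57% fell. TXNIP, which inhibits thioredoxin and glucose uptake, had 70.4, 78.4 and 54.0 CPM with dex, against 14.0, 18.7 and 10.1 CPM with vehicle (2.27 ± 0.23, adjusted p = 4.46e-06). KLF15, a transcription factor of amino acid breakdown, had 6.09, 6.13 and 7.73 CPM with dex, against 0.388, 2.39 and 1.19 CPM with vehicle (2.42 ± 0.34, adjusted p = 1.54e-04). Both genes were higher with dex in every library. FBXO32, the muscle ubiquitin ligase atrogin-1, had 166, 122 and 180 CPM with dex, against 105, 72.6 and 91.0 CPM with vehicle (0.80 ± 0.12, adjusted p = 3.98e-04). PDK4, a kinase that shuts off pyruvate dehydrogenase, had 333, 322 and 283 CPM with dex, against 66.5, 120 and 60.6 CPM with vehicle (1.99 ± 0.48, adjusted p = 0.0144). The groups did not overlap for either gene, and vehicle replicate 2 was the highest vehicle value for PDK4. The PDK4 call was lost without pair 1 or 3 (adjusted p up to 0.0917). Of 13 adipogenesis genes 4 rose (30.8%) and 2 fell (15.4%). ZBTB16 and PLIN2, the lipid droplet protein gene (0.63 ± 0.09), were among the rises, while EBF1 fell by 0.70 and KLF5 fell by 0.46. Those falls were lost without pair 1 or 2 for EBF1 (adjusted p up to 0.0628) and without each of the pairs for KLF5 (up to 0.304). Without pair 1 or pair 3 the metabolism and atrophy genes that rose numbered 4. Of 17 clock genes only NFIL3 (0.35 ± 0.06) and CRY2 (0.27 ± 0.07) rose, which is 11.8%. The call for CRY2 was lost without pair 2 or 3 (adjusted p up to 0.146).

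Cytokine genes were among those that fell. Of 17 inflammatory genes tested, 4 fell (23.5%), IL24 rose (5.88%) and 12 were not called, with a median log2 change of -0.78. Over all tested genes 4.57% fell and 4.36% rose. LIF, a cytokine of the interleukin 6 family, had 54.4, 66.0 and 55.8 CPM with dex, against 88.8, 193 and 149 CPM with vehicle (-1.23 ± 0.14, adjusted p = 1.67e-05). CSF2, which encodes GM-CSF, had 1.65, 2.42 and 1.14 CPM with dex, against 4.24, 12.6 and 5.21 CPM with vehicle (-2.01 ± 0.29, adjusted p = 1.58e-04). The groups were separate for both, with vehicle replicate 2 highest. CCL2, a monocyte chemoattractant, had 16.3, 11.2 and 13.4 CPM with dex, against 25.3, 107 and 88.5 CPM with vehicle (-2.23 ± 0.47, adjusted p = 0.00487). IL11, a cytokine also known from bone, had 11.5, 29.0 and 11.1 CPM with dex, against 18.6, 70.6 and 50.9 CPM with vehicle (-1.41 ± 0.33, adjusted p = 0.0123). The CCL2 groups did not overlap and the IL11 groups did, and both calls were lost without pair 2 or pair 3, with adjusted p up to 0.0838 for CCL2 and 0.133 for IL11. The chemokine CXCL8 had 26.8, 23.0 and 15.4 CPM with dex, against 16.6, 218 and 70.8 CPM with vehicle, and was not called (-1.70 ± 0.84, adjusted p = 0.231). The call for IL24 was lost without pair 1 or 3 (up to 0.224). The members that fell numbered 6, 2 and 2 without pair 1, 2 or 3. The median change of the list was 0.25 in pair 1, -1.27 in pair 2 and -0.83 in pair 3.

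NF-kB genes fell in part, immediate early genes gave 1 call and several p53 targets fell. Of 16 NF-kB subunit and inhibitor genes, 4 fell (25.0%) and none rose, with a median log2 change of -0.28. Over all tested genes 4.57% fell and 4.36% rose. BCL3, a nuclear IkB protein, had 5.60, 7.23 and 5.00 CPM with dex, against 9.77, 31.5 and 13.5 CPM with vehicle (-1.48 ± 0.26, adjusted p = 0.00102). All 3 dex values of BCL3 lay below all vehicle values. NFKBIE fell by 0.91, the adaptor gene TRAF1 fell by 1.02 and the subunit gene REL fell by 1.27. The TRAF1 call was lost without pair 3 (adjusted p = 0.131), and those for NFKBIE (up to 0.121) and REL (up to 0.368) were lost both without pair 2 and without pair 3. The list gave 5, 2 and 1 falls without pair 1, 2 or 3, and none without the pairing. Of 20 immediate early genes, which are induced within minutes by growth signals, only IER2 fell, which is 5.00% and near the share over all tested genes. Its log2 change was -0.68 ± 0.17 (adjusted p = 0.0174), a call lost without pair 2 or 3 (up to 0.163). The median log2 change of these 20 genes was -0.68, and by pair it was 0.06, -0.91 and -0.63. NR4A1, an orphan nuclear receptor, had 44.8, 152 and 51.1 CPM with dex, against 30.3, 678 and 86.4 CPM with vehicle, and was not called (adjusted p = 0.540). Of 22 p53 target genes 7 fell (31.8%) and none rose, with a median of -0.14. PLK2, a polo-like kinase, was the only one of the 7 without overlap, with 75.3, 92.0 and 66.2 CPM with dex against 101, 143 and 126 CPM with vehicle (-0.66 ± 0.12, adjusted p = 0.00137). The p53 falls numbered 6, 2 and 2 without pair 1, 2 or 3, and 2 with limma.

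Growth factor and G protein signalling genes fell in part. Of 22 genes of EGFR ligands and ERK feedback, 4 fell (18.2%) and none rose, with a median log2 change of -0.32. HBEGF, a membrane-anchored ligand of EGFR, had 23.4, 22.5 and 15.2 CPM with dex, against 35.2, 78.4 and 65.1 CPM with vehicle (-1.50 ± 0.30, adjusted p = 0.00308). Its groups did not overlap, and the call was lost without pair 3 (adjusted p = 0.0508). The ligand NRG1 fell by 0.94, the feedback inhibitor SPRED3 fell by 0.35 and EGFR fell by 0.45. The calls for SPRED3 (adjusted p up to 0.142) and EGFR (up to 0.0928) were lost without each of the pairs, and that for NRG1 without pair 1 (0.0545). The list gave 3, 2 and 1 falls without pair 1, 2 or 3. Of 13 regulators of G protein signalling, which speed GTP hydrolysis by Gα subunits, 3 rose (23.1%) and 4 fell (30.8%). Over all tested genes 4.36% rose and 4.57% fell. RGS16 had 6.23, 4.59 and 4.23 CPM with dex, against 10.8, 28.5 and 9.22 CPM with vehicle (-1.52 ± 0.22, adjusted p = 2.10e-04). RGS4 fell by 1.05, RGS3 by 0.50 and RGS5 by 0.43 on the log2 scale, while RGS9 (0.95 ± 0.16), RGS2 (0.70 ± 0.14) and RGS19 (0.55 ± 0.14) rose. RGS16 did not overlap between groups and remained called without any 1 pair. RGS9 also remained called without any 1 pair, although its groups overlapped. The other calls were lost without pair 2 for RGS3 (adjusted p = 0.0712) and RGS19 (0.175), without pair 2 or 3 for RGS4 (up to 0.131), without pair 1 for RGS2 (0.0713) and without pair 3 for RGS5 (0.122).

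**Figure D3:**
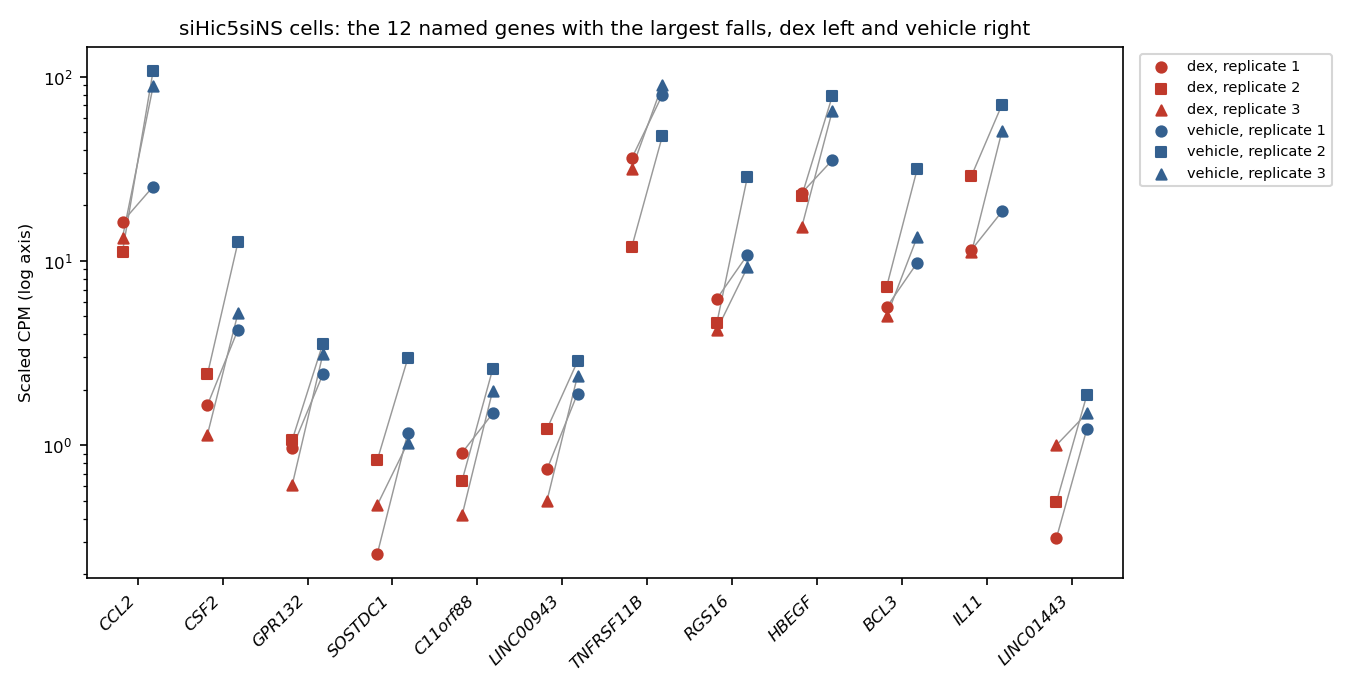
Scaled CPM on a log axis for the 12 genes named for the largest falls in siHic5siNS cells, with dex at the left and vehicle at the right of each gene and lines joining the 3 pairs. All lines run higher to the vehicle side, vehicle replicate 2 is the highest vehicle value in 11 of the 12 genes, and only IL11 has overlapping groups.

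The remaining large falls included bone and lymphoid receptor genes. TNFRSF11B, the osteoprotegerin gene, encodes the decoy receptor that blocks osteoclast formation, and had 36.2, 12 and 31.7 CPM with dex, against 79.9, 47.9 and 90.6 CPM with vehicle (-1.53 ± 0.15, adjusted p = 2.94e-06). Replicate 2 was the lowest under both treatments and the groups did not overlap. GPR132, a G protein-coupled receptor gene, had 0.967, 1.07 and 0.612 CPM with dex, against 2.43, 3.56 and 3.12 CPM with vehicle (-1.78 ± 0.21, adjusted p = 1.57e-05). The secreted BMP and WNT antagonist SOSTDC1 fell by 1.70, C11orf88 fell by 1.61, LINC00943 fell by 1.57 and LINC01443 fell by 1.35, all at low levels. The calls for SOSTDC1 and LINC01443 were lost without pair 2 (adjusted p 0.0628 and 0.0653). Of the 12 genes named for the largest falls, 7 remained called without any 1 pair, and 3 were called without the pairing. In the osteoblast list of 14, 1 gene rose (7.14%) and 2 fell (14.3%), next to 4.36% and 4.57% over all tested genes. MSX2, a homeobox gene of bone formation, rose (0.88 ± 0.14), TNFRSF11B and PTHLH fell, and 11 genes were not called. The PTHLH call was lost without pair 3 (adjusted p = 0.0837). Of 19 angiogenic factor and receptor genes, 4 rose (21.1%) and 2 fell (10.5%). Among the rises were EDN3 (2.1 ± 0.29), which encodes endothelin 3, and PGF (1.26 ± 0.19), a placental growth factor gene. KDR (1.88 ± 0.46), a VEGF receptor gene, also rose, a call lost without pair 1 or 3 (adjusted p up to 0.124). VEGFA itself had 83.2, 89.1 and 94.5 CPM with dex, against 99.6, 164 and 127 CPM with vehicle (-0.52 ± 0.10, adjusted p = 0.00287), a call lost without pair 2 (adjusted p = 0.0675).

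Of 18 integrin genes 2 rose (11.1%) and 1 fell (5.56%), next to 4.36% and 4.57% over all tested genes. ITGA5, the fibronectin receptor subunit, had 1055, 1315 and 718 CPM with dex, against 589, 641 and 438 CPM with vehicle (0.86 ± 0.09, adjusted p = 4.46e-06). ITGA6, a laminin receptor subunit, had 68.0, 66.6 and 68.7 CPM with dex, against 88.5, 106 and 111 CPM with vehicle (-0.58 ± 0.09, adjusted p = 2.20e-04). Neither gene overlapped between groups. ITGA10 rose by a small amount (0.32 ± 0.10), a call lost without each of the pairs (adjusted p up to 0.188). Of 13 cadherin genes, CDH15 and CDH18 rose and CDH10 and CDH1 fell (15.4% each way). Of these only CDH15 remained called without any 1 pair, with adjusted p up to 0.291 for CDH18, 0.163 for CDH10 and 0.270 for CDH1. Of 13 contractile genes of the smooth muscle type 1 fell (7.69%). It was MYLK, a myosin light chain kinase gene, which fell by 0.32, a call lost without each of the pairs (adjusted p up to 0.114). Of 31 matrix proteases and inhibitors 5 rose and 5 fell (16.1% each way). ADAMTS9, a proteoglycan-cleaving protease, had 44.0, 43.8 and 40.9 CPM with dex, against 17.4, 16.0 and 24.9 CPM with vehicle (1.16 ± 0.18, adjusted p = 4.61e-04). The related protease ADAMTS1 had 1.08, 1.87 and 1.97 CPM with dex, against 2.78, 5.28 and 3.77 CPM with vehicle (-1.25 ± 0.19, adjusted p = 3.94e-04). MMP16, a membrane-type matrix metalloproteinase, had 27, 27 and 33.9 CPM with dex, against 58.5, 61.4 and 47.6 CPM with vehicle (-0.93 ± 0.12, adjusted p = 4.31e-05). The dex and vehicle values of these 3 proteases did not overlap, and the inhibitor TIMP3 fell by 0.42. Of 29 collagen, laminin and glycoprotein genes, 2 fell (6.90%), next to 4.57% over all tested genes. These were COL11A1 (-0.36 ± 0.10) and COL12A1 (-0.22 ± 0.06), and both calls were lost without each of the pairs (adjusted p up to 0.285 and 0.197).

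The TGF-beta pathway, in which Hic-5 was identified as an induced gene, showed 3 rises (12.5%) and 5 falls (20.8%) among 24 genes. Over all tested genes 4.36% rose and 4.57% fell. The median log2 change of the 24 genes was -0.00. The ligand TGFB2 had 19.5, 7.41 and 24.8 CPM with dex, against 48.7, 11.4 and 47.7 CPM with vehicle (-1.0 ± 0.22, adjusted p = 0.00761). Replicate 2 was low for TGFB2 under both treatments, and the groups overlapped. CYR61, a matricellular protein gene, had 228, 161 and 159 CPM with dex, against 239, 373 and 318 CPM with vehicle (-0.76 ± 0.17, adjusted p = 0.00880). The call for TGFB2 was lost without pair 1 (adjusted p = 0.0968) and that for CYR61 without pair 2 or 3 (up to 0.144). SKI, a repressor of SMAD proteins, rose (0.50 ± 0.08), as did LTBP1, which anchors latent TGF-beta (0.38 ± 0.07). The falls numbered 1, 2 and 2 without pair 1, 2 or 3. Among 16 paxillin family and LIM adaptor genes 2 fell (12.5%), FHL2 (-0.47 ± 0.12) and CSRP2 (-0.33 ± 0.10). The other 14 were not called, TGFB1I1 itself among them (-0.25 ± 0.12, adjusted p = 0.246). Without pair 3 neither fall was called (adjusted p up to 0.168 and 0.270), nor was CSRP2 without pair 2. Of 20 WNT pathway genes 1 rose and 1 fell (5.00% each way), near the shares over all tested genes. WNT5A, a non-canonical ligand, had 52.0, 18.3 and 45.7 CPM with dex, against 29.3, 11.4 and 24.9 CPM with vehicle (0.80 ± 0.08, adjusted p = 1.59e-06). Replicate 2 was low under both treatments, so the groups overlapped although all 3 pairs rose. WNT7A fell by 1.25, a call lost without pair 2 (adjusted p = 0.0502).

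Of 15 sodium and potassium transport genes 2 rose (13.3%) and 5 fell (33.3%), next to 4.36% and 4.57% over all tested genes. The falls numbered 3, 2 and 3 and the rises 0, 2 and 2 without pair 1, 2 or 3. Without the pairing there was 1 of each. The calcium-activated potassium channel KCNN4 had 39.0, 45.7 and 40.9 CPM with dex, against 58.9, 76.3 and 63.4 CPM with vehicle (-0.65 ± 0.07, adjusted p = 4.46e-06), with no overlap. The water channel AQP1 fell by 0.60. SLC9A3 also fell (-0.33 ± 0.08), a call lost without each of the pairs (adjusted p up to 0.0834). The potassium channel KCNA4 rose at a low level of expression (1.62 ± 0.37, adjusted p = 0.0101), a call lost without pair 1 (adjusted p = 0.0913). Growth and housekeeping lists gave few calls. None of 30 mitosis genes, 34 DNA replication genes or 28 ribosomal protein genes was called, with median log2 changes of -0.03, -0.07 and 0.11. Without pair 3, however, 3 mitosis genes fell. Of 21 interferon-stimulated genes IFIT3 rose (4.76%), and of 21 genes of ATF4 and the unfolded protein response HERPUD1 rose (4.76%). Of 22 cholesterol and lipid genes NSDHL rose (4.55%), while HMGCS1 was 1 of 2 that fell (9.09%). These shares of rises are near the 4.36% over all tested genes. Each of these 4 calls was lost without at least 1 of the pairs, with adjusted p up to 0.254 for IFIT3, 0.456 for HERPUD1, 0.0610 for NSDHL and 0.331 for HMGCS1.

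**Figure D4:**
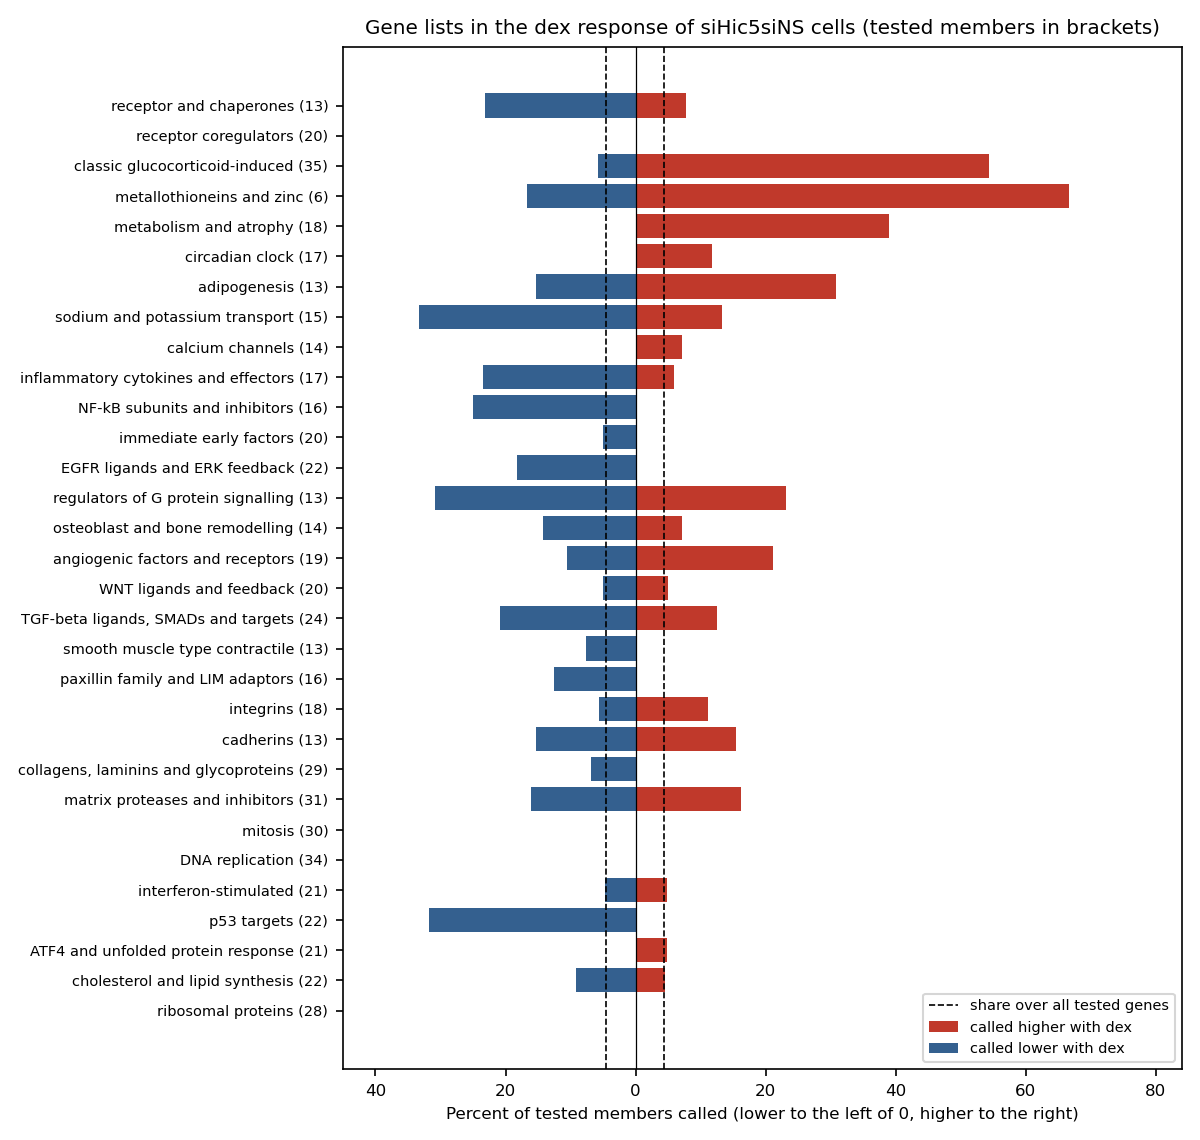
Percent of the tested members of each gene list called in the dex response of siHic5siNS cells, higher to the right of 0 and lower to the left, with tested members in brackets. Dashed lines mark 4.36% and 4.57%, the shares over all tested genes; the classic induced genes (19 of 35) and the metallothionein list (4 of 6) have the longest bars to the right, and several signalling lists have bars on the left only.

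The same response was set beside that of siNSsiNS cells, where 284 genes rose (1.87%) and 95 fell (0.626%), together 2.5%. Of the rises, 204 were shared, which is 30.8% of those with siHic5siNS and 71.8% of those with siNSsiNS. Of the falls, 67 were shared, which is 9.67% and 70.5%. A gene called in only one of them is not thereby shown to differ, and the difference of the responses was therefore tested gene by gene. It was called for 28 genes, of which 20 had the more positive response with siHic5siNS (0.132% of those tested) and 8 the more negative (0.0527%). Without the pairing the edgeR test called 0 genes, with 126 at an unadjusted p under 0.05, against 1174 with the pairing. With no true difference, a share of 0.05 of the 15179 tests would be under that limit. The 126 genes lie below this share and the 1174 above it. DESeq2 with the pairing called 63.

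GPR137B and SCNN1A kept their call when any 1 of the 6 pairs was left out. GPR137B, a lysosomal membrane protein gene (chr1:236142539-236208907), had 99.9, 126 and 101 CPM with dex in siHic5siNS cells, against 144, 178 and 142 CPM with vehicle. In siNSsiNS cells it had 38.9, 37.5 and 30.6 CPM with dex, against 37.9, 31.1 and 29.9 CPM with vehicle. It thus fell with siHic5siNS (-0.50 ± 0.05) with separate groups, while the siNSsiNS groups overlapped, and the responses differed by -0.61 ± 0.07 (adjusted p = 0.00247). SCNN1A, which encodes a pore subunit of the epithelial sodium channel (chr12:6346847-6377359), had 27.4, 26.4 and 33.8 CPM with dex in siHic5siNS cells, against 19.4, 22.3 and 26.0 CPM with vehicle. In siNSsiNS cells it had 135, 111 and 104 CPM with dex, against 40.2, 43.6 and 34.0 CPM with vehicle. Its rise of 1.57 with siNSsiNS compared with 0.37 ± 0.12 with siHic5siNS, a value short of the threshold (adjusted p = 0.0549), although its dex values all lay above its vehicle values, and the difference was -1.20 ± 0.16 (adjusted p = 0.00348).

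ITGA5 gave the opposite picture (chr12:54395261-54419266). In siNSsiNS cells it had 213, 222 and 251 CPM with dex, against 212, 242 and 227 CPM with vehicle, and these groups overlapped. The difference of the responses was 0.85 ± 0.13 (adjusted p = 0.00897), and the call was lost without pair 2 of siNSsiNS (adjusted p = 0.0559). RHOB had 143, 157 and 120 CPM with dex in siNSsiNS cells, against 116, 145 and 93.4 CPM with vehicle, a difference of 0.98 ± 0.16 (adjusted p = 0.00989). CDH15 had 3.54, 4.24 and 5.32 CPM with dex in siNSsiNS cells, against 1.24, 1.57 and 2.51 CPM with vehicle. It rose in both, with the larger rise with siHic5siNS (difference 2.46 ± 0.44, adjusted p = 0.0254). RASGRP2 had 8.86, 6.87 and 6.50 CPM with dex in siNSsiNS cells, against 3.14, 2.60 and 1.72 CPM with vehicle, a difference of 2.23 ± 0.40 (adjusted p = 0.0251). Its dex levels in siHic5siNS cells overlapped those in siNSsiNS cells, whereas every vehicle value was lower with siHic5siNS. IL1RAP, an interleukin 1 receptor subunit, had 22.7, 14.1 and 23.7 CPM with dex in siHic5siNS cells, against 36.6, 25.1 and 45.4 CPM with vehicle. Its siNSsiNS values were 76.5, 81.9 and 40.2 CPM with dex, against 79.4, 86.0 and 47.9 CPM with vehicle (difference -0.70 ± 0.11, adjusted p = 0.00989). Leaving out 1 of the 6 pairs ended the call in 3 cases for RHOB (adjusted p up to 0.0866), in 4 for CDH15 (up to 0.158), in 5 for RASGRP2 (up to 0.143) and in 2 for IL1RAP (up to 0.0746). TRIM63, SHOX and SPINK13, for all their size with siHic5siNS, were not called in the difference, which was 1.73 ± 1.07 for TRIM63 (adjusted p = 0.757), 3.59 ± 1.17 for SHOX (adjusted p = 0.417) and 2.28 ± 0.91 for SPINK13 (adjusted p = 0.540).

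**Figure D5:**
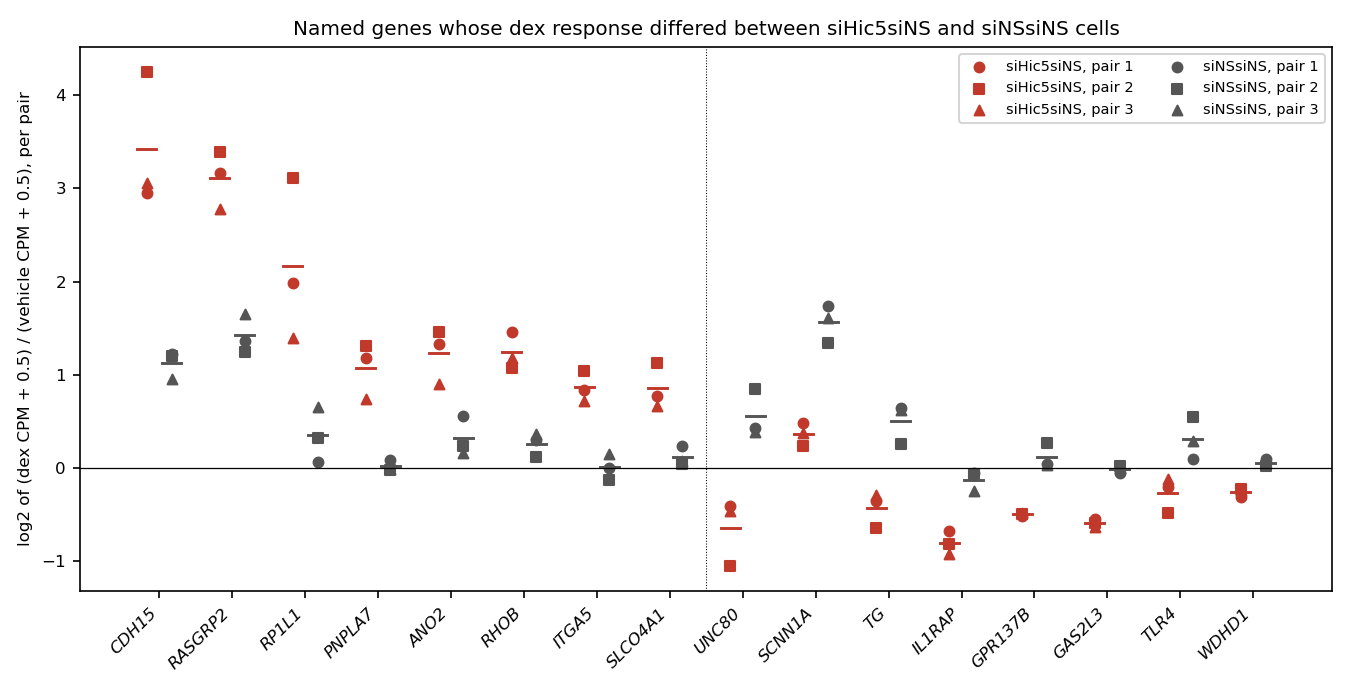
Log2 ratio of dex CPM plus 0.5 to vehicle CPM plus 0.5 in each of the 3 pairs, for the 16 genes named for the difference, with siHic5siNS left of siNSsiNS and bars at the means. Left of the dotted line the siHic5siNS points lie above the siNSsiNS points, right of it below, and the 3 siHic5siNS points of SCNN1A lie above 0 at 0.24 to 0.48 while its siNSsiNS points are above 1.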

How the data were processed

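RNA-seq counts per gene were analysed for the 6 siHic5siNS libraries, with the other 30 of the 36 libraries in the same fit. Reads were mapped to GRCh38 with TopHat2 2.1.1, and the authors also used edgeR, according to the submitters' processing notes. How reads were counted, on which annotation and with what strand setting is not given in the sources used. The authors' deposited table is named for normalised CPM, but its values are raw whole-number counts for 15186 genes, with differing totals per library, and were treated as counts. All levels in CPM and all changes were computed here. Without stated strandedness, reads of overlapping or antisense genes cannot be told apart.

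edgeR 4.0.16 in R 4.3.3 (glmQLFit and glmQLFTest, upper-quartile factors) was fitted to all 36 libraries with 18 pair terms and 6 dex terms, which leaves 12 residual degrees of freedom. The test covered 15179 genes whose scaled CPM exceeded 1 in 3 or more libraries, which left out 7. P-values were adjusted by Benjamini-Hochberg over all of them, and the threshold for a call was an adjusted p of 0.05. Standard errors are the log2 change divided by the root of F. Pairing follows the replicate numbers. Residuals of same-numbered vehicle and dex libraries correlated at 0.544, 0.747 and 0.668. TGFB1I1 and NR3C1 were compared between siRNA conditions in a fit of 12 group means. No 2 siHic5siNS libraries of the same treatment were copies (lowest chi-square per degree of freedom 60.3), and other pairs of libraries were not checked. The procedure was tested on simulated data.

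Genes were named by rule. These were TGFB1I1 and NR3C1, the 12 largest called rises and falls with a mean CPM of at least 1 and 3 agreeing pairs, up to 4 called members of each of 35 lists by smallest p, and the 8 largest called differences each way. The largest rise left out had a log2 change of 3.21 and the largest fall left out -1.27, next to 3.31 and -1.35 for the last ones named. Genes outside the rule (FOSB, NR4A1, CXCL8, PER1, DUSP1, SGK1, PYGB, KIF13B, PTPN1 and other list members) were chosen after their values were seen. The members and lists were chosen with earlier results of these data known. RefSeq names and promoters are of GRCh38.p14, and 15116 genes (99.5%) matched by identifier. Alternatives were TMM factors, no factors, DESeq2 1.42.0, limma 3.58.1 on log2(CPM + 0.5), other filters, no pairing, fewer libraries and, added after seeing the data, ribosomal RNA genes left out of totals. A few called members of the lists are not reported here.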

Additional observations from a re-analysis of the deposited data

Results flagged for a closer look

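The dex response differed between siHic5siNS and siNSsiNS cells, by the test of the difference itself, for 19 of the genes named by the rule. The difference, siHic5siNS minus siNSsiNS on the log2 scale, was positive for CDH15 (2.46), RASGRP2 (2.23), RP1L1 (2.09), PNPLA7 (1.33), ANO2 (1.00), RHOB (0.98), ITGA5 (0.85), SLCO4A1 (0.77), SKI (0.77), WNT5A (0.69) and KRT8 (0.40). It was negative for UNC80 (-1.35), SCNN1A (-1.20), TG (-1.11), IL1RAP (-0.70), GPR137B (-0.61), GAS2L3 (-0.60), TLR4 (-0.58) and WDHD1 (-0.32). UNC80, a subunit of the sodium leak channel complex, had 3.95, 2.36 and 3.95 CPM with dex in siHic5siNS cells, against 5.43, 5.44 and 5.61 CPM with vehicle, while in siNSsiNS cells it had 3.90, 3.40 and 2.55 CPM with dex, against 2.77, 1.67 and 1.83 CPM with vehicle. All 3 pairs moved down in siHic5siNS cells and up in siNSsiNS cells. TLR4, the receptor for bacterial lipopolysaccharide, had 67.2, 53 and 81.6 CPM with dex in siHic5siNS cells, against 77.8, 74.1 and 88.7 CPM with vehicle, while in siNSsiNS cells it had 119, 125 and 112 CPM with dex, against 111, 85.4 and 91.4 CPM with vehicle. Many of these genes differed in vehicle level between the siRNA conditions, and the part of that in the difference was not tested. Apart from GPR137B and SCNN1A, each of these calls was lost when some single pair of either condition was left out, with a highest adjusted p between 0.0559 for ITGA5 and 0.305 for TLR4. Leaving out any of the 6 pairs ended the calls for GAS2L3, WDHD1 and KRT8, and leaving out 5 of the 6 in turn ended those for RASGRP2, RP1L1, PNPLA7 and SLCO4A1. The calls for ITGA5 and WNT5A were each lost in 1 case.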

How the results depend on the processing

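The response of siHic5siNS cells was called for 1355 genes (662 higher, 693 lower). Without the replicate block, that is without the pairing, it was called for 133 (110 higher, 23 lower), and the median biological coefficient of variation was 15.9% in place of 6.81%. A fit of the comparison's own 6 libraries called 738 (385 higher, 353 lower), and leaving out 1 pair called 670 to 882 (393 to 440 higher, 277 to 442 lower), both with fewer samples. The difference of responses was called for 28 genes (20 higher, 8 lower), for 0 without the replicate block (0 higher, 0 lower), for 63 with DESeq2 (47 higher, 16 lower; the cause was not tested), for 15 in a fit of its own 12 libraries (10 higher, 5 lower) and for 7 to 26 without 1 pair (4 to 16 higher, 3 to 10 lower). Of the genes named for the response, 53 of 97 remained called without any 1 pair, and of those named for the difference 2 of 16. TMM factors, no factors, limma, other filters on low counts and the removal of ribosomal RNA genes from totals kept the totals of response and difference within 1.5 times. With TMM 5 p53 target genes fell in place of 7. Between siRNA conditions TGFB1I1 and NR3C1 kept direction and side of the threshold in every alternative run; with a replicate block across siRNA conditions TGFB1I1 differed by -2.35 on the log2 scale with dex and by -2.05 with vehicle. No called value of a named gene reversed its sign in these alternatives. Genes of few counts limit precision, and errors cover 3 samples a group.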

Other observations

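The kind of gene and its level were described for the called genes of the response in siHic5siNS cells. Of 13678 protein-coding genes, 633 rose (4.63%) and 610 fell (4.46%). Of 867 long non-coding RNA genes, 17 rose (1.96%) and 56 fell (6.46%), and of 444 transcribed pseudogenes 6 rose (1.35%) and 22 fell (4.95%). These shares are descriptions and were not tested against each other. Of 2417 genes of at least 100 CPM with vehicle, 84 rose with a median log2 change of 0.25 and 144 fell with a median of -0.34. Of 7585 genes between 10 and 100 CPM, 325 rose with a median of 0.36 and 383 fell with a median of -0.39. Of 4002 genes between 1 and 10 CPM, 172 rose with a median of 0.85 and 157 fell with a median of -0.70. Of 1175 genes under 1 CPM, 81 rose with a median of 2.11 and 9 fell with a median of -1.17. These groups were formed by the vehicle level, which is also the denominator of the change. The larger and more frequent rises at the lowest level therefore follow in part from the grouping.

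A few genes combined a high level with a change of small error. PYGB, the brain form of glycogen phosphorylase, averaged 160 ± 13.5 CPM with dex and 93.8 ± 4.12 CPM with vehicle in siHic5siNS cells (SD, n = 3 each; log2 change 0.76). KIF13B, a kinesin motor gene, averaged 86.3 ± 1.41 CPM with dex and 37.5 ± 1.48 CPM with vehicle (1.20). PTPN1, a phosphatase of insulin receptor signalling, averaged 345 ± 38.2 CPM with dex and 208 ± 14.8 CPM with vehicle (0.72). All these were also called in the difference between siHic5siNS and siNSsiNS cells, with more positive values in siHic5siNS cells, and were chosen after their values were seen. Leaving out 1 of the 6 pairs ended the call of the difference in 2 cases for PYGB (adjusted p up to 0.0749), in all 6 for KIF13B (up to 0.201) and in 5 for PTPN1 (up to 0.264), whereas the response of each remained called without any 1 pair.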
